A study of Mus musculus with 6 samples.

Results

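The vomeronasal type 1 receptor (Vmn1r) genes were followed through the list of H3K9me3 peaks that were present in WT Bergmann glia (BG) and absent from Setdb1 mutant BG. Peaks were taken whose nearest TSS was given the name Vmn1r and a number, with names marked as pseudogenes left out. This gave 229 of 34673 peaks, which carried 121 gene names. The samples were BG of C57BL/6 mice at postnatal day 10, the radial astroglia of the cerebellar cortex, with 2 WT, 2 Setdb1 mutant (MT) and 2 control libraries. Both BG groups carried the Nes GFP transgene, by which BG were sorted, and the mutant group carried Setdb1 flox alleles deleted by mGFAP-Cre, a driver that is active in cerebellar neural cells other than Purkinje cells. For the controls, input and IgG both appear in the labels, and their genotype is not stated. The list gives each peak's position, score and annotation for merged libraries and holds no value per library, so depth and replicate spread are unknown, no test of WT against MT could be made, and a peak says nothing of expression.

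Vmn1r genes encode G protein-coupled receptors of sensory neurons in the apical layer of the vomeronasal organ, where they detect pheromones and other chemical cues of conspecifics. Each neuron is known to express very few receptor genes, and the others are kept silent. The coding sequence lies in a single exon, and the family has grown by tandem duplication into clusters rich in L1 elements, a family of LINE retrotransposons. Trimethylated H3K9 (H3K9me3) marks silent chromatin. Setdb1 is among the enzymes that deposit it and is chiefly known for silencing endogenous retroviruses.

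The sequences at 4 peaks show what was marked, read from GRCm38, the same build as mm10, with each CG dinucleotide in capitals. The peak with the highest score lay 22.5 kb downstream of the Vmn1r16 TSS and was centred on the internal part of an IAPEY3 retrovirus. The peak nearest to a TSS was centred 121 bp downstream of that of Vmn1r123 and reached into its coding exon. The other 2 were centred on L1_Mus3, one of the 3 most frequent repeat names among Vmn1r peaks, in 2 different gene clusters.
Vmn1r16, chr6:57300955-57301254, + strand: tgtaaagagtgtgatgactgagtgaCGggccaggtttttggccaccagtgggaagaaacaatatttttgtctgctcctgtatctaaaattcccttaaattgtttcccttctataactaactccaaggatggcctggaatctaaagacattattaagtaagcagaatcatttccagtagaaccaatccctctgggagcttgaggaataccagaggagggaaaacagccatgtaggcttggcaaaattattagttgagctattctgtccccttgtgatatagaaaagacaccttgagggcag
Vmn1r123, chr7:21162156-21162455, + strand: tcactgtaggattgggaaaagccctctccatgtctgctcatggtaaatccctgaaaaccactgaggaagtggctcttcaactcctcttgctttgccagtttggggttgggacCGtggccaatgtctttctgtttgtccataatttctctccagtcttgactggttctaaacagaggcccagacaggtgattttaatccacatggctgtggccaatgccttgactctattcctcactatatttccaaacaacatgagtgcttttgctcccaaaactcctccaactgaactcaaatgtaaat
Vmn1r42, chr6:89839465-89839614, + strand: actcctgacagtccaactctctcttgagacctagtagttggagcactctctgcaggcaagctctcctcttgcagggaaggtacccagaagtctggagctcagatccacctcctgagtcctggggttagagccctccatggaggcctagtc
Vmn1r82, chr7:12311021-12311170, + strand: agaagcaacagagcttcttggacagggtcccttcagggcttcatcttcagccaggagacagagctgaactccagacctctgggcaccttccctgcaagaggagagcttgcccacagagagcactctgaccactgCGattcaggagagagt

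In the RefSeq annotation 230 protein-coding Vmn1r genes stood at 14 places when genes up to 1 Mb apart were joined, and each of the 14 places had at least 1 peak. A cluster of 86 genes at 20.1 to 24.1 Mb of chromosome 7 held 97 of the 229 peaks. The neighbouring cluster at chr7:10273828-13220289 (24 genes) held 35 peaks, and the one at 5.1 to 6.0 Mb (11 genes) held 21. Chromosome 7 as a whole had 69.0% of the peaks and 53.9% of the genes. The cluster on chromosome 13 (35 genes) held 18 peaks, those on chromosome 6 held 12 (15 genes), 11 (28 genes) and 3 (8 genes), and that on chromosome 17 (14 genes) held 10. The peaks were thus not spread in proportion to gene number.

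**Figure D1:**
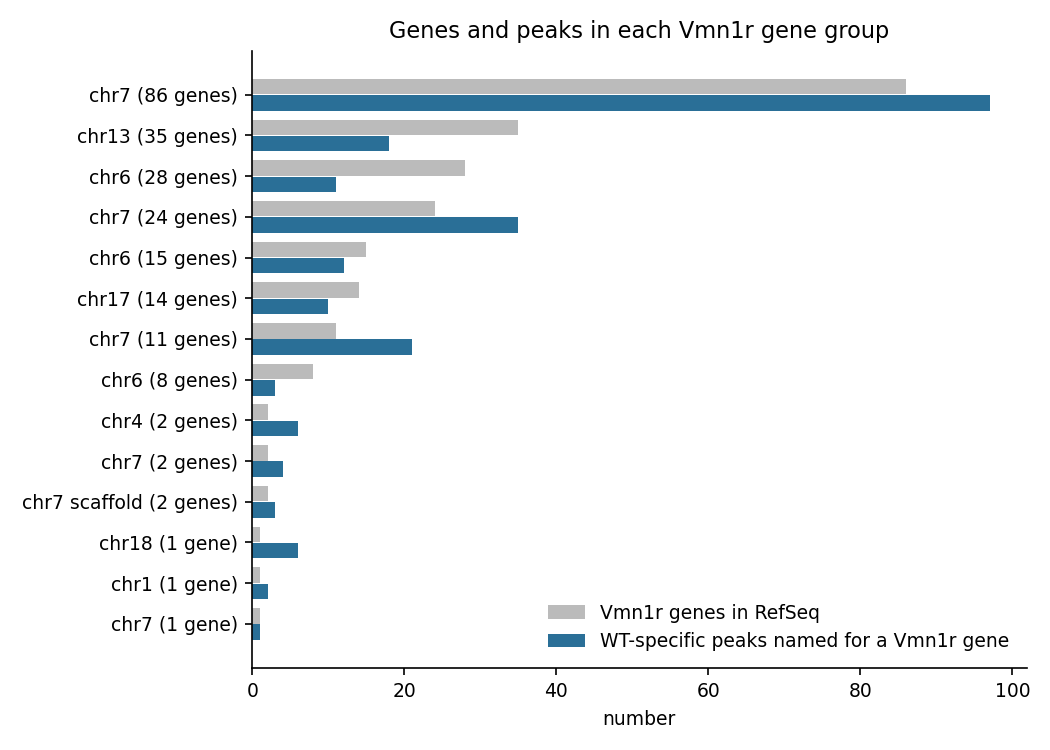
Number of Vmn1r genes in RefSeq (grey) and of WT-specific peaks named for a Vmn1r gene (blue) at each of the 14 places, one row per place. Peaks outnumbered genes in the chromosome 7 clusters of 86, 24 and 11 genes, whereas the chromosome 13 cluster had 18 peaks for 35 genes.

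Counting every peak inside a cluster, whatever its gene, the cluster of 86 genes had 42.8 peaks per Mb of sequenced bases against 18.5 per Mb over chromosome 7, a ratio of 2.31. The ratio was 1.75 for the chromosome 7 cluster of 11 genes and 1.43 for that of 24 genes. On chromosome 6 the cluster of 15 genes had 21.5 peaks per Mb against 12.0 for the chromosome (ratio 1.79), and that of 28 genes had 9.04 (ratio 0.752). The chromosome 13 cluster stood close to its chromosome, at 16.3 against 13.9 peaks per Mb, and the chromosome 17 cluster below it, at 13.4 against 17.4. The highest ratio, 2.66, was at the chromosome 7 cluster of 2 genes, where 14 of 17 peaks were given to other genes. The chromosome 6 cluster of 8 genes had 0.658. Peak density thus differed between Vmn1r clusters. No interval was computed, and some ratios rest on few peaks, with 19 in the chromosome 13 and 12 in the chromosome 17 cluster. Most sequence of the cluster of 86 genes is repeated, as given below, so the placing of reads bears on its density.

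By name, 121 of 230 Vmn1r genes had a peak (52.6%, 95% Wilson interval 46.2 to 59.0, which like all intervals here covers counting error only). Among all protein-coding genes, counted by gene ID, the share was 49.0%. Of the 121 genes, 66 had 1 peak, 30 had 2, 12 had 3 and 13 had 4 or more. Gene names in the list are older than RefSeq. By gene ID, another 37 peaks at 16 genes belonged to receptors that the list shows under other symbols, 35 of them under Gm symbols and all 35 in the cluster of 86 genes. With these, 137 genes had a peak (59.6%, interval 53.1 to 65.7), which is the value to set beside 49.0%. The share was higher for type 2 receptor (Vmn2r) genes, at 74.0% (65.6 to 80.9), and lower for odorant receptor (Olfr) genes, at 25.8%. By the same count, the Vmn1r share within 10 kb of a TSS was 37.4% (31.4 to 43.8) against 21.2% of all protein-coding genes. It was 23.6% for Vmn2r and 17.1% for Olfr genes. Only 21 Vmn1r genes (9.13%) had a peak over the gene body, against 31.1% of protein-coding genes, most of which are far longer than a Vmn1r gene.

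The gene with most peaks by name was Vmn1r137, with 8, but none of the 8 lay at the RefSeq position of Vmn1r137. They stood at 3 places spread over 2590 kb of the cluster of 86 genes, where RefSeq has Vmn1r107, Vmn1r130 and Vmn1r165. The coding sequence of Vmn1r130 was 100% identical to that of Vmn1r137. In all, 37 of the 229 peaks (16.2%, interval 12.0 to 21.5) were measured from a second match of the named gene's transcript rather than from the gene itself, and 34 of these lay in the cluster of 86 genes. Where the gene's own position was on the same sequence, it was 482.8 to 2548 kb away. All 37 had another Vmn1r gene as nearest TSS in RefSeq. A count for a single gene of this cluster is for that reason uncertain. The count for the family shifts as well, from 229 peaks by name to 261 with the nearest TSS recomputed and 266 by gene ID.

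Vmn1r165 showed the same thing, with 5 peaks by name and 0 at its own position. Vmn1r118 had 6 peaks, of which 2 were at its own position and 4 were next to Vmn1r242. Vmn1r142 had 5, of which 2 were its own, and Vmn1r132 had 5, of which 4 were its own. By contrast, all 5 peaks of Vmn1r72, of Vmn1r76 and of Vmn1r57, and all 4 of Vmn1r157 and of Vmn1r64, were measured from the gene named. They stood in 1 place each but not always close to the gene. Those of Vmn1r72 lay 7.52 to 106.2 kb and those of Vmn1r76 5.58 to 53.2 kb from the TSS. Vmn1r186 had 4 peaks, of which 2 were measured from its own position on an unlocalised scaffold of chromosome 7. The other 2 lay nearest to Vmn1r62 on chromosome 7 itself.

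Outside the larger clusters, Vmn1r238, alone on chromosome 18, had 6 peaks 10.0 to 94.2 kb from its TSS, with scores of 5.46 to 8.99. They were centred on MTA_Mm, Lx3A, L1Md_A, Lx and MMERVK10C-int, and 1 was on no repeat. Vmn1r3 on chromosome 4 had 5 peaks, all upstream at 54.6 to 140.7 kb, with scores of 5.13 to 9.95. Of these, 4 were on no repeat and 1 was on L1_Mus1. In RefSeq all 5 are closer to Gm46840. Its neighbour Vmn1r2 had 1 peak (score 9.63) on RLTR50B. Vmn1r1, alone on chromosome 1, had peaks 6.03 kb downstream on Lx (score 9.63) and 12.3 kb upstream on RLTR45 (8.34). Vmn1r90, at 14561242 on chromosome 7 and in none of its clusters, had 1 peak on Lx with a score of 6.42.

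Of the 229 peaks, 201 were intergenic (87.8%, interval 82.9 to 91.4), against 59.4% of all peaks, 78.9% of Vmn2r and 83.8% of Olfr peaks. There were 15 in exons, 11 in introns, 2 at gene ends and 0 in promoters, a class set by the peak's centre. Even so, 5 peaks reached over a TSS, and a peak listed under the older symbol Gm8660, now Vmn1r254, was classed as promoter with its centre 56 bp from the TSS. The gene-end peaks were those of Vmn1r59 and Vmn1r208. The median distance to the TSS was 12.1 kb (95% interval 9.9 to 13.7), against 37.4 kb over all peaks, 26.7 kb for the type 2 receptors (Vmn2r, 213 peaks) and 9.2 kb for odorant receptors (Olfr, 383 peaks). Within 10 kb lay 43.7% of Vmn1r peaks (37.4 to 50.1) and 19.4% of all peaks. Windows along the clusters were as close to a TSS when pooled. Of 1254 windows placed every 10 kb along the clusters, 43.2% (40.5 to 46.0) were within 10 kb of a TSS, against 16.7% of 5303 windows placed every 500 kb over the genome. The pooled value hides differences between clusters, whose windows were within 10 kb in 28.6 to 55.6% of cases where a cluster had over 2 windows. Of the 203 Vmn1r peaks inside the clusters, 47.8% (41.0 to 54.6) were within 10 kb. Peaks there that were given to other genes were within 10 kb in 38.2% of 110 cases (29.6 to 47.5). The windows were not split by gene, so they match neither set of peaks exactly. Without the cluster of 86 genes, 31.8% of peaks (24.5 to 40.2) and 40.7% of windows (37.4 to 44.0) were within 10 kb. These peaks include some that lie outside the windows, such as the distant ones of Vmn1r238 and Vmn1r3, so the sets are not alike. In the chromosome 13 cluster the median distance was 12.2 kb for peaks and 8.31 kb for windows.

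**Figure D2:**
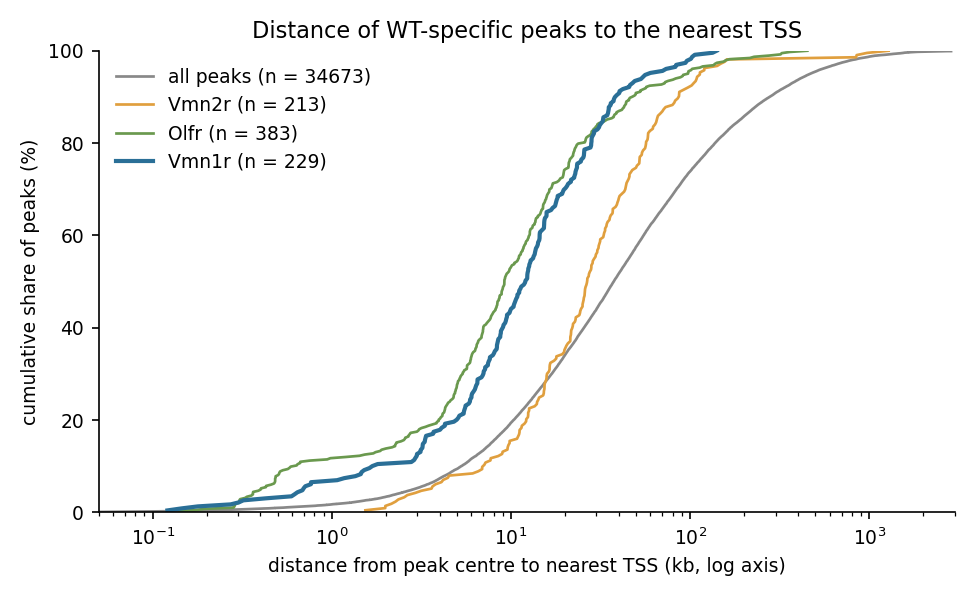
Cumulative share of peaks against the distance from the peak centre to the nearest TSS, in kb on a log axis, for Vmn1r, Vmn2r, Olfr and all peaks. The Vmn1r curve passes 43.7% at 10 kb, close to Olfr (53.0%) and above Vmn2r (15.5%) and all peaks (19.4%).

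Repeats lay at the centre of 170 Vmn1r peaks (74.2%, interval 68.2 to 79.5), against 54.0% of all peaks. L1 elements made up most of the difference, with 102 peaks (44.5%, 38.2 to 51.0) against 16.3% of all peaks. The share on LTR elements, 26.2% (20.9 to 32.3), was close to the 26.6% of all peaks. Within the LTR class, ERVK elements, which include the IAP and MMERVK families, were at 41 Vmn1r peaks (17.9%, 13.5 to 23.4) against 13.0% of all peaks, and ERVL-MaLR elements at 2.62% (1.21 to 5.6) against 8.96%. SINEs were at 4 Vmn1r peaks (1.75%) against 8.05% of all peaks, 1.88% of Vmn2r and 1.04% of Olfr peaks. ERVK elements were at 24.4% of Vmn2r and 22.5% of Olfr peaks, and ERVL-MaLR elements at 5.63% and 3.66%. The high L1 share was shared with the other chemosensory families, at 46.0% (39.4 to 52.7) for Vmn2r and 38.6% (33.9 to 43.6) for Olfr.

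**Figure D3:**
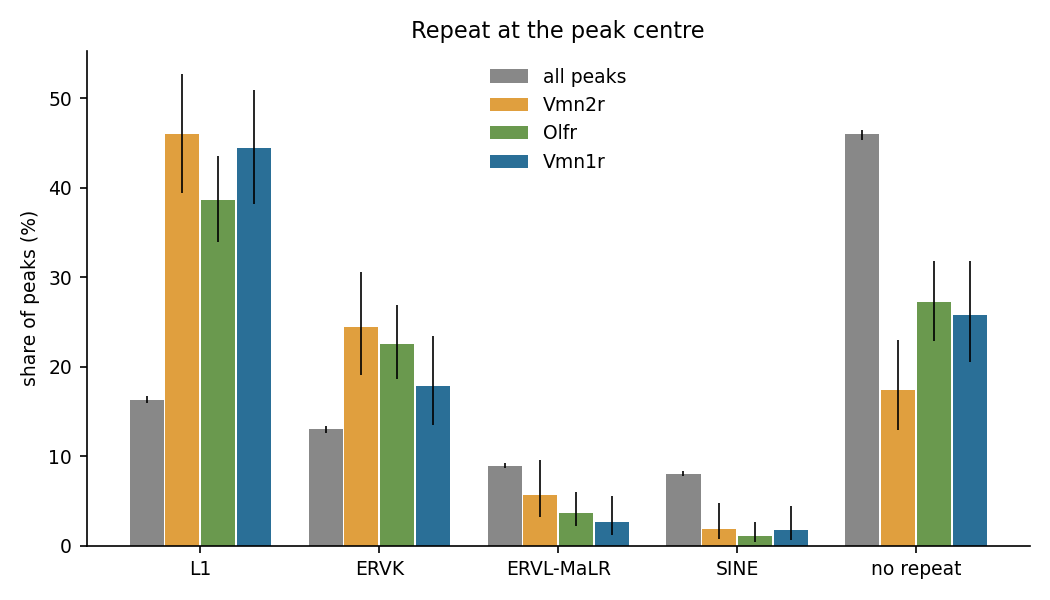
Share of peaks centred on L1, ERVK, ERVL-MaLR and SINE elements or on no repeat, for all peaks, Vmn2r, Olfr and Vmn1r, where bars are percentages and lines are 95% Wilson intervals. Vmn1r peaks were on L1 in 44.5% of cases and all peaks in 16.3%.

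The repeat share was also set beside the clusters' own sequence. RefSeq writes repeats in lower case, and by this measure the centre was repeat in 55.4% (52.7 to 58.2) of the windows placed along the clusters and in 36.6% of those over the genome. In the cluster of 86 genes the share of peaks on a repeat, 69.1% (59.3 to 77.4), was close to that of its windows, 65.5% (60.6 to 70.0). Without that cluster it was 78.0% of peaks (70.2 to 84.2), some of them outside the windows, and 50.9% of windows (47.5 to 54.2). Inside all the clusters it was 73.9% of the 203 Vmn1r peaks (67.4 to 79.5). The share of peaks comes from the authors' annotation and not from the lower case, so peaks and windows were not measured alike. The lower case does not name the repeat, so the L1 content of the clusters was not measured. Among peaks inside the clusters that were given to genes other than Vmn1r, 29.1% of 110 (21.4 to 38.2) were on L1, against 45.8% of the 203 Vmn1r peaks there (39.1 to 52.7). The 110 include 2 peaks of the pseudogene Vmn1r-ps79. The 2 sets also weight the clusters differently. The chromosome 7 cluster of 24 genes, where 34.3% of Vmn1r peaks were on L1, held 44 of the 110 and 34 of the 203. Outside the clusters, 16.6% of 2328 other peaks of chromosome 7 were on L1.

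L1 names fell almost evenly into the L1Md group, which holds the youngest mouse elements (31 of 102 peaks), the L1_Mus group (33) and the older Lx group (34). The L1_Mus group made up 32.4% (24.1 to 41.9) of L1 peaks at Vmn1r genes, against 12.6% over all L1 peaks, 15.3% at Vmn2r and 16.9% at Olfr genes. Of these 33 Vmn1r peaks, 18 had under 50% of their 100-base words found once in the genome, a count described below. For Vmn2r it was 2 of 15 and for Olfr 1 of 25, so more of the Vmn1r share rests on copied sequence. By name, L1_Mus1, L1_Mus3 and Lx were each at 16 peaks, L1Md_F2 at 12 and L1Md_T at 9. L1_Mus1 occurred at 3 of the 14 places, and L1_Mus3 and Lx at 6 each. Chromosome 7 held 15 of the 16 L1_Mus1 peaks, 14 of the 16 on Lx, 10 of the 16 on L1_Mus3 and all 12 on L1Md_F2. The cluster of 86 genes alone held 14 of the 16 L1_Mus1 peaks. MMERVK9E_I-int, an ERVK provirus, was at 6 Vmn1r peaks of its 54 in the whole list.

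Clusters differed in the class of repeat. In the cluster of 86 genes 53 of 97 peaks were on L1 (54.6%, interval 44.7 to 64.2) and 11 on LTR elements (11.3%, 6.45 to 19.2). The chromosome 13 cluster had the opposite make-up, with 1 of 18 peaks on L1 (5.56%, 0.988 to 25.8) and 10 on LTR elements (55.6%, 33.7 to 75.4), of which 9 were ERVK. Its 2 highest scores, both 14.1, were on MMERVK10C-int near Vmn1r206 and on RLTR45 near Vmn1r208. The chromosome 7 cluster of 24 genes was even, with 12 on L1 and 13 on LTR elements, and the chromosome 6 cluster of 15 genes had 8 of 12 on L1. The L1 intervals of the chromosome 13 cluster and the cluster of 86 genes did not overlap, and neither did their LTR intervals. These intervals treat peaks as independent, whereas 56 peaks of the cluster of 86 genes shared sequence with another Vmn1r peak. The intervals may therefore be too narrow for this comparison, which was not tested. Without the cluster of 86 genes, L1 and LTR elements were each at 37.1% of the 132 Vmn1r peaks left (29.4 to 45.6).

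The 15 exon peaks were all on chromosome 7, and 12 of them were in the cluster of 86 genes. They covered 40.3 to 81.9% of a receptor's coding sequence, which is a single exon in all 230 genes with a median of 924 bases. Their highest score was 9.63 at Vmn1r125, followed by 8.99 at Vmn1r103 and 8.02 at Vmn1r120. Another 4 exon peaks stood under older symbols and are not among the 15. That of Gm8693, now Vmn1r257, scored 10.9. The peak named for Vmn1r155 (8.02) covered Vmn1r130 in RefSeq, that named for Vmn1r166 (6.1) covered Vmn1r131, and that named for Vmn1r93 (6.1) covered Vmn1r250. The others of the 15 were at Vmn1r114 (7.38), Vmn1r121 (7.06), Vmn1r91 and Vmn1r104 (6.74 each), Vmn1r123, Vmn1r129 and Vmn1r57 (6.1 each), and Vmn1r64 and Vmn1r82 (5.78 each). Exon peaks were 6.55% of Vmn1r peaks, 2.91% of all peaks and 11.5% of Olfr peaks, a family that also has its coding sequence in 1 exon.

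A stretch of 60 bases, at positions 517 to 576 of the coding sequence, shows how alike the marked exons are. It is given in coding direction for those of equal coding length whose exon peak covers all of it, with bases that differ from the most frequent one in capitals.
Vmn1r91, chr7:20101674-20101733, + strand: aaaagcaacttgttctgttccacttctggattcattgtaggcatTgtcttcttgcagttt
Vmn1r104, chr7:20534353-20534412, + strand: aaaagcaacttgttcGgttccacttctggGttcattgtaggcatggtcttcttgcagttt
Vmn1r125, chr7:21272695-21272754, + strand: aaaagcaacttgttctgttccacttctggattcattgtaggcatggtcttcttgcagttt
Vmn1r129, chr7:21360716-21360775, - strand: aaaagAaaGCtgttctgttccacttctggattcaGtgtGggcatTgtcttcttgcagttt
Vmn1r130, chr7:21512296-21512355, + strand: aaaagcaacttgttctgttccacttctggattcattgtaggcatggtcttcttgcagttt
The stretch of Vmn1r125 and of Vmn1r130 was the same, and that of Vmn1r129 differed from them at 6 bases. Over the whole coding sequence, the closest other receptor was 99.6% identical in the median of the 15 genes. The other 74 genes of the cluster of 86 genes were as alike, with a median of 99.9%.

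Such sequence bears on where reads can be placed. Each peak was cut into words of 100 bases, and words found once in the genome were counted. In 102 of 229 Vmn1r peaks (44.5%, interval 38.2 to 51.0) under 50% of the words were found once, against 12.2% of all peaks, 30.7% of Vmn2r and 14.1% of Olfr peaks. In 62 (27.1%) no word was. The authors placed a read that matches several sites at 1 best site, so which copy carried the mark is uncertain for these peaks. This holds most for the 62 with no word found once. The paper's reads were paired and longer than the words, so pairs may be placed better than the words show, which was not measured. Of the 15 exon peaks, 12 were under 50%, and Vmn1r57, Vmn1r64 and Vmn1r82 were at 85.4, 92.7 and 100%.

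The cluster of 86 genes held 77 of the 102 peaks with under 50% of words found once. In this cluster they were 79.4% of peaks (70.3 to 86.2) and 76.5% of the windows along it (72.0 to 80.4), so the peaks had about the repetition of the sequence they lie in. The chromosome 7 cluster of 24 genes had 2.86% of its peaks (0.506 to 14.5) and 19.3% of its windows (15.2 to 24.2) in this state. Peaks there, and in the chromosome 6 cluster of 15 genes, where 0 of 12 peaks were under 50%, consisted mostly of sequence found once. Among the 127 peaks with at least 50% of words found once, 39.4% were on L1 and 31.5% on LTR elements.

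**Figure D4:**
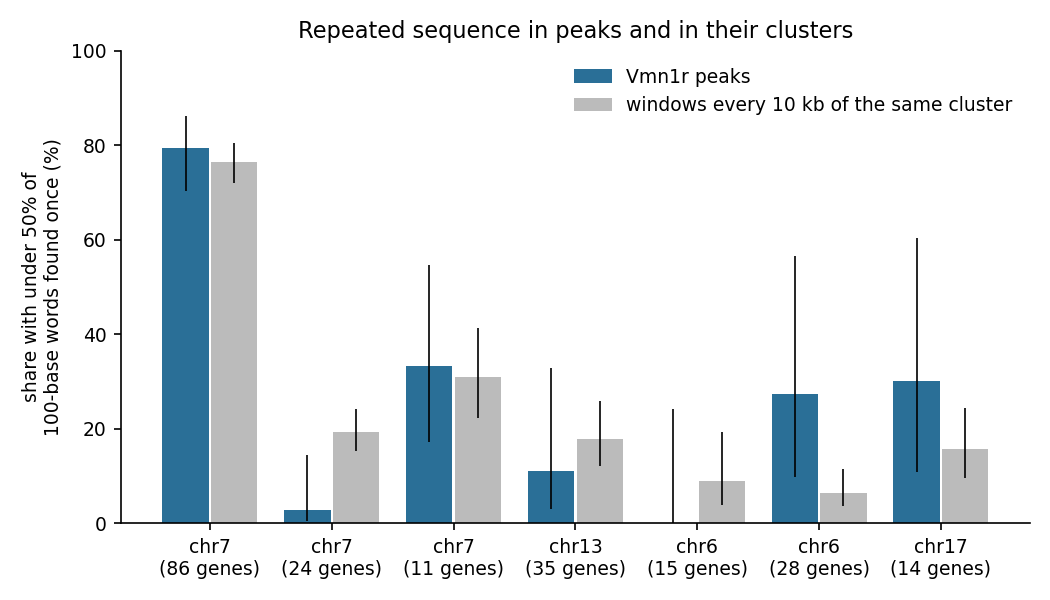
Share of Vmn1r peaks (blue) and of windows placed every 10 kb along the same cluster (grey) with under 50% of their 100-base words found once in the genome, for the 7 clusters with 10 or more peaks. Lines are 95% Wilson intervals. The cluster of 86 genes reached 79.4% of peaks and 76.5% of windows.

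Copies of the same sequence also appeared more than once within the Vmn1r peaks. A word of 100 bases was shared with another Vmn1r peak by 66 peaks (28.8%, interval 23.3 to 35.0), which fell into 17 groups. The largest group had 13 peaks with 11 gene names, on L1Md_A and L1Md_T. The next had 10 peaks, all in receptor exons. Of the 66 peaks, 56 were in the cluster of 86 genes.

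The score of Vmn1r peaks, the authors' measure of peak height given without its scale, had a median of 7.06 (95% interval 6.74 to 7.06). This was the same as the median of all peaks, and scores ran from 4.81 to 39.5. The 90th percentile of the list was 11.2, reached by 26 Vmn1r peaks (11.4%, 7.87 to 16.1). The highest was the peak of 1698 bp on IAPEY3-int at Vmn1r16, a score reached by 0.248% of all peaks. Vmn1r16 had a second peak on IAPEY3-int (8.99) and another on RLTR1B (12.2). Next came Vmn1r73 (25.7, on L1Md_A), the peak named for Vmn1r137 next to Vmn1r165 (18.6, on L1Md_F2), Vmn1r53 (18.3, on L1Md_F), and Vmn1r63 and Vmn1r160 (17.7 each, on IAPEz-int and L1_Mus3).

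**Figure D5:**
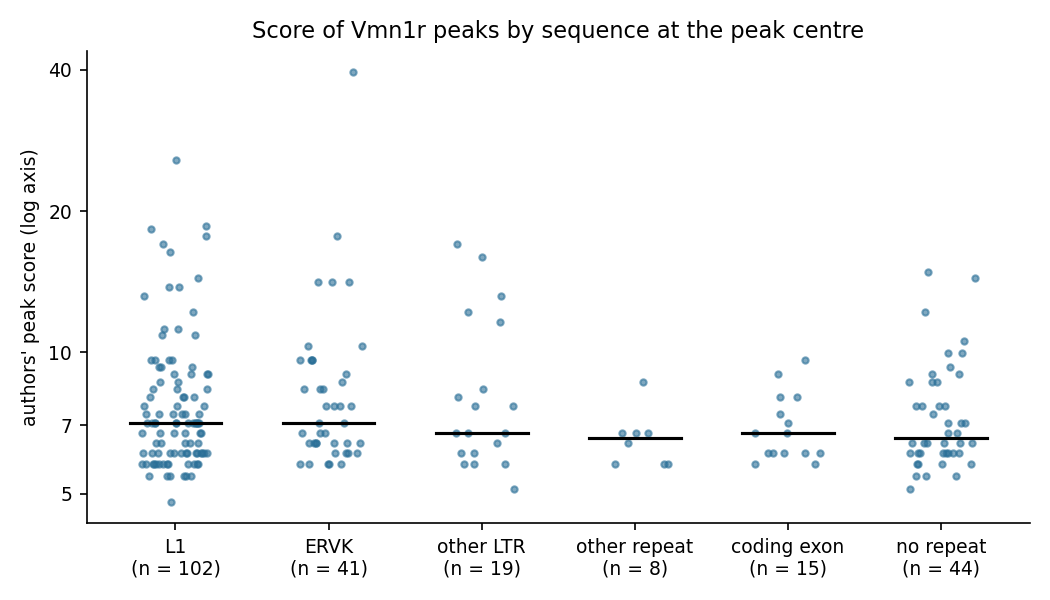
Score of each Vmn1r peak on a log axis by the sequence at its centre, where points are peaks and lines are medians. Medians run from 6.58 to 7.06, and the scores above 20 are 1 ERVK peak and 1 L1 peak.

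By the sequence at the centre, median scores were 7.06 on L1, 7.06 on ERVK, 6.74 on other LTR elements and 6.74 in receptor exons, and the intervals of these medians overlapped. A width of 500 bp was given to 73.8% of the peaks, and 60 were wider. Another peak of the list lay within 10 kb of 42.4% of Vmn1r peaks (36.1 to 48.8), against 34.7% of all peaks and 22.5% of Olfr peaks. Vmn1r peaks were lower in GC than all peaks, with a median of 45.7% against 49.1%. They were also lower in CG dinucleotides, with a median of 0.599 per 100 bases against 1.2. Both medians were below those of all peaks for Vmn2r (46.4% and 0.798) and Olfr (47.7% and 0.798) as well. The letters TTGGCA, the half-site of NFI factors, on either strand, were in 29.7% of Vmn1r peaks and 29.1% of all peaks.

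Genes that work beside the receptors were also looked up, 27 in all. They cover signal transduction, the making and wiring of vomeronasal neurons, and the other receptor and H2-M families of the organ. Of these, 15 had a peak, beside the 49.0% of all protein-coding genes. Most peaks were given to Bcl11b, a transcription factor of these neurons (10 peaks), Kirrel3, an adhesion protein of axon sorting (6), and Gng13, a G protein gamma subunit (4). Their closest peaks lay 57.5, 19.8 and 1.13 kb from the TSS. Nrp2 and Robo2, axon guidance receptors, had 2 each, the closest at 19.5 and 130.9 kb. H2-M10.2 also had 2, of which 1 lay 0.404 kb from the TSS. Trpc2, the main transduction channel, had none. Markers of the cells in a cerebellar sort cannot be read for identity from a list of peaks. A peak was given to 3 of 9 BG markers (Gdf10, Slc1a3 and Hopx), 3 of 4 markers of the granule neuron lineage, 2 of 3 of Purkinje cells, 3 of 3 of the oligodendrocyte lineage and 2 of 2 of microglia. The share over all protein-coding genes was 49.0%, and sets this small cannot be told apart from it or from each other.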

How the data were processed

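H3K9me3 ChIP-seq of BG from 2 WT, 2 MT and 2 control libraries was used. Per the labels and methods, the authors aligned reads to mm10 with Bowtie2 (2.2.8), kept 1 best location and 1 tag per position, and called and annotated peaks with HOMER (4.10.1). The deposited list holds WT-specific peaks of merged libraries with a score, of unstated scale, and no value per library. The background of the call is not given either, since the header can be read as input or MT. Depth and replicate error are unknown, so no test was run and shares carry 95% Wilson intervals.

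Genes, TSSs and sequence were those of RefSeq GRCm38.p6, the build of mm10. Words of 100 bases were taken every 10 bases and counted on both strands of the genome, with the counter tested on simulated data. Coding sequences were compared with edlib (1.3.9.post1), and tables were made with pandas (2.3.3) and SciPy (1.17.1). Medians have intervals from order statistics. A gene's position was its own when the authors' distance was within 2 bp of that from RefSeq. Members and lists were chosen with earlier results of these data known. Named genes are those with most peaks, overall and by cluster, those of the 5 highest scores and the 5 peaks nearest a TSS, those with exon or gene-end peaks, and those outside clusters, and not all of them appear in the text. The sequence of 1 peak is not reported here.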

Additional observations from a re-analysis of the deposited data

How the results depend on the processing

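No paired analysis was possible because the list holds no value per library. Of 114 values under alternative settings, 93 stayed within the 95% interval of the value reported (for counts, within 1.5 times) and 21 did not. Leaving out the cluster of 86 genes moved most. It left 132 peaks, of which 46.2% were on chromosome 7, 37.1% on L1, 37.1% on LTR elements, 95.5% intergenic and 31.8% within 10 kb of a TSS, with a median distance of 15.8 kb. The share of genes with a peak depended on the definition. It was 33.0% with pseudogenes counted, 35.2% for scores at or above the median of the list, 43.5% for peaks of the most common width, 61.7% with the nearest TSS recomputed, 32.2% for peaks within 10 kb and 9.13% for peaks over the gene body. Scores at or above the median left 115 peaks with a median of 8.66, and the most common width gave a median score of 6.42, which follow from how these were chosen.

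3 alternatives were added after seeing the data. By gene ID, 59.6% of genes had a peak. With at least 50% of words found once, 127 peaks were left, 35.7% of genes had one, and 92.1% were intergenic and 56.7% on chromosome 7. Peaks at the gene's own position moved no value beyond its interval. Depth is unknown, reads were placed at 1 best site, and names among near-identical genes are uncertain. The libraries may not be separate animals.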
